A study of Homo sapiens with 15 samples.

Results

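A set of 8 long noncoding RNAs was followed across RNA sequencing libraries of HT1080, an established human fibrosarcoma line: MALAT1, NEAT1, GAS5, SNHG1, H19, KCNQ1OT1, HOTAIR and HOTAIRM1. They were chosen by name, as the rows of the deposited gene table that carry these 8 symbols, out of 60675 genes. Libraries came from wild-type cells kept 2 days in 1 µM TMP195 (n = 3), from untreated cells with KDAC7 H709A (n = 4), from untreated cells with KDAC4 H803A (n = 3) and from untreated cells with KDAC4 H976Y (n = 4). KDAC4 and KDAC7 (genes HDAC4 and HDAC7) are class IIa lysine deacetylases, TMP195 inhibits that class, H803A and H709A are taken as the inactivated forms of the series and H976Y as its enhanced form. All groups share the HT1080 background, culture in MEM with fetal bovine serum, and total RNA that was depleted of ribosomal RNA. The labels do not say how many clones a variant stands for or whether replicates are separate cultures. The p-values therefore set group differences against the spread among these libraries only, and that spread may be technical. Untreated wild-type cells were not analysed here, so in every contrast with TMP195-treated cells the inhibitor and the absence of a variant cannot be told apart.

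The 8 transcripts belong to 4 kinds. MALAT1 and NEAT1 are nuclear RNAs that are transcribed from neighbouring genes; MALAT1 gathers in nuclear speckles with splicing factors, and NEAT1 is the scaffold of paraspeckles. GAS5 and SNHG1 are spliced hosts of small nucleolar RNAs (snoRNAs): their introns are processed to snoRNAs that guide modification of ribosomal RNA, and their spliced exons are short-lived when translation runs, because they are removed by nonsense-mediated decay. H19 and KCNQ1OT1 are imprinted RNAs of a single cluster on chromosome 11; KCNQ1OT1 runs antisense through KCNQ1 from the paternal allele and silences neighbouring genes there, while H19 is made from the maternal allele. HOTAIR lies in the HOXC cluster and has been linked to the repressive complex PRC2, and HOTAIRM1 lies in the HOXA cluster and is known from myeloid maturation.

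The transcript ends show how different these RNAs are, and stretches of them are shown for the members on which the results turn, from GENCODE v29 on GRCh38. The counts of NEAT1 pool its 8 annotated transcripts. MALAT1 and the longest NEAT1 transcript end without a poly(A) tail. They end in a triple helix formed by U-rich and A-rich stretches, just before a tRNA-like RNA that is cut off. Their last 160 bases before that element (annotated as RF01684) are shown for MALAT1 (chr11:65505957-65506116, plus strand) and NEAT1 (chr11:65445381-65445540, plus strand), with the stretches of at least 10 bases that both ends hold in capitals.
MALAT1 3′ end: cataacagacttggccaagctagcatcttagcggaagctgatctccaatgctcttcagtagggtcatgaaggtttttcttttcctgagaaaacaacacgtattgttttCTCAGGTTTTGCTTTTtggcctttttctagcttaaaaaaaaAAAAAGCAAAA
NEAT1 3′ end: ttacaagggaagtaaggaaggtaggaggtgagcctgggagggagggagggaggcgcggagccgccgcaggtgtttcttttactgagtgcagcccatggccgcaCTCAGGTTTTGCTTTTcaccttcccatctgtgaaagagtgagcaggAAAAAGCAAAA
The shared stretches are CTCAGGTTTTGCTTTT, of 16 bases, and AAAAAGCAAAA, of 11 bases; they were searched on the transcript strand and do not overlap. Among the last 160 bases of the longest transcript of 51872 genes, the longer stretch stood in 1 gene (0.00193%), NEAT1 itself, and the shorter in 33 (0.0636%); the longest annotated MALAT1 transcript runs past this point and is not among them. GAS5 and SNHG1 are known as genes whose RNAs start with a pyrimidine tract, as RNAs of ribosomal proteins do. The annotated starts are shown for GAS5 (its first exon, chr1:173867960-173867989, minus strand) and SNHG1 (chr11:62855826-62855885, minus strand), with the leading run of C and T in capitals.
GAS5 start: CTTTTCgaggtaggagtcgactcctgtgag
SNHG1 start: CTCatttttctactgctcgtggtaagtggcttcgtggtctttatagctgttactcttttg
The run is 6 bases long in GAS5, a length reached by 2.79% of 47958 genes, and 3 bases long in SNHG1, a length reached by 11% of them.

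Library facts bear on every value below. The 14 libraries held 6151417 to 24297525 counts, and values are given as counts per 1e+06 counts (CPM) after scaling by edgeR's trimmed mean of M-values. The KDAC4 H976Y libraries stood apart, with 16.1% to 31.5% of counts from mitochondrial ribosomal RNA, against at most 0.345% in any library of another group. The library labelled KDAC4 H803A replicate 1 was closer to KDAC7 H709A replicate 4 than to its own group: the median variance between this pair was 2.01 times that of counting alone, against 89.8 and 89.5 times with KDAC4 H803A replicates 2 and 3. The library labelled KDAC7 H709A replicate 1 was closest to KDAC4 H803A replicate 3 (8.67 times), and 44.2 to 86.7 times apart from its own group. KDAC7 H709A replicate 4 was less far from replicates 3 and 2 of its own group, at 13.4 and 19 times. Those replicates were 8.3 times apart from each other. GC-rich genes read higher relative to GC-poor ones by a log2 contrast of 1.22 to 1.40 in KDAC7 H709A replicate 1 and KDAC4 H803A replicates 2 and 3, and lower, by -1.11 and -1.13, in KDAC4 H803A replicate 1 and KDAC7 H709A replicate 4. Results are therefore also given without KDAC7 H709A replicates 1 and 4 and KDAC4 H803A replicate 1 (called below the 3 libraries that stand apart). The 6 mesenchymal markers, of which HT1080 should express most, summed to 3268 to 7298 CPM per library, and the epithelial, endothelial, blood and neural lists to at most 12.9, 5.55, 0.532 and 5.21 CPM.

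The members differed widely in abundance. Per kilobase of exon, MALAT1 averaged 873 ± 421 CPM and NEAT1 167 ± 80.3 CPM over all libraries (SD, n = 14), GAS5 47.8 ± 14.1 and SNHG1 34.2 ± 8.04, KCNQ1OT1 3.83 ± 1.99 and HOTAIRM1 3.31 ± 1.36. GAS5 and SNHG1 did not overlap with NEAT1 on this scale, whereas KCNQ1OT1 and HOTAIRM1 overlapped with each other. By total counts rather than per kilobase, MALAT1 ranked 7th and NEAT1 14th of 49953 genes of at least 200 bases, KCNQ1OT1 302nd, GAS5 883rd and SNHG1 1350th. The 8 members together took 0.362% of counts in KDAC4 H976Y replicate 3 and 2.19% in KDAC4 H803A replicate 2, the lowest and highest libraries. Dividing by the effective lengths that the table gives, which weight the isoforms in use, raised MALAT1 to 2627, NEAT1 to 379 and GAS5 to 316 CPM per kilobase and left KCNQ1OT1, with its single transcript, at 3.84; on this scale GAS5 (171.5 to 436 over the libraries) overlapped with NEAT1 (153 to 655). H19 and HOTAIR were not abundant in these cells, with 13 and 27 counts in all 14 libraries together.

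**Figure D1:**
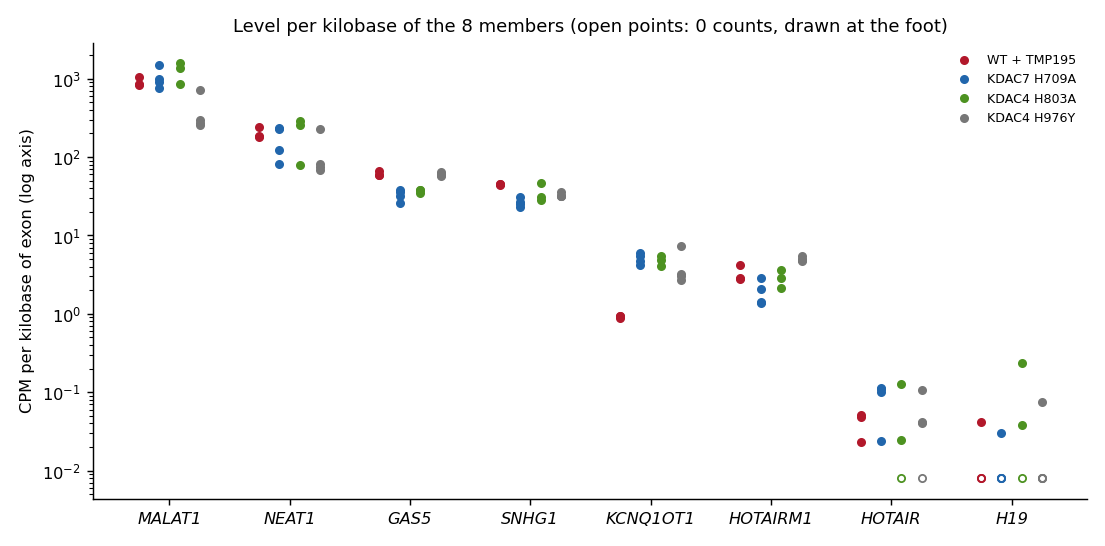
CPM per kilobase of exon (log axis) for the 8 members, each point 1 library, coloured by group; open points at the foot are libraries with 0 counts. MALAT1 and NEAT1 lie highest, GAS5 and SNHG1 next, KCNQ1OT1 and HOTAIRM1 lower, and HOTAIR and H19 are lowest.

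Of the 8 members, 6 passed the filter on low counts and entered the fit over 17780 genes. At an adjusted p below 0.05, TMP195-treated cells had 2 of the 6 tested members higher and 1 lower than KDAC7 H709A cells, where 6.29% of all tested genes were called, 1.99% higher and 4.31% lower. Against KDAC4 H803A cells, TMP195-treated cells had 1 higher and 1 lower (5.34% of genes, 1.56% higher and 3.78% lower), and against KDAC4 H976Y cells also 1 higher and 1 lower (16.5% of genes, 7.96% higher and 8.55% lower). KDAC7 H709A cells had 1 higher and 2 lower than KDAC4 H976Y cells (12.5% of genes, 7.28% higher and 5.19% lower), and KDAC4 H803A cells had 1 higher and 1 lower than KDAC4 H976Y cells (15.1% of genes, 9.21% higher and 5.85% lower). Between KDAC7 H709A and KDAC4 H803A cells 0 of 6 were called, and edgeR called 0 genes of any kind (0%), although 1118 genes had an unadjusted p under 0.05 and DESeq2 called 79. Without the 3 libraries that stand apart the same counts of members were 4, 2, 4, 3, 4 and, for KDAC7 H709A against KDAC4 H803A, 2, in a fit that called 45.7%, 47.9%, 53.9%, 31.8%, 64.5% and 60.2% of 18359 tested genes in the same comparisons. Each group enters 3 of the 6 comparisons, so the comparisons share their libraries.

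**Figure D2:**
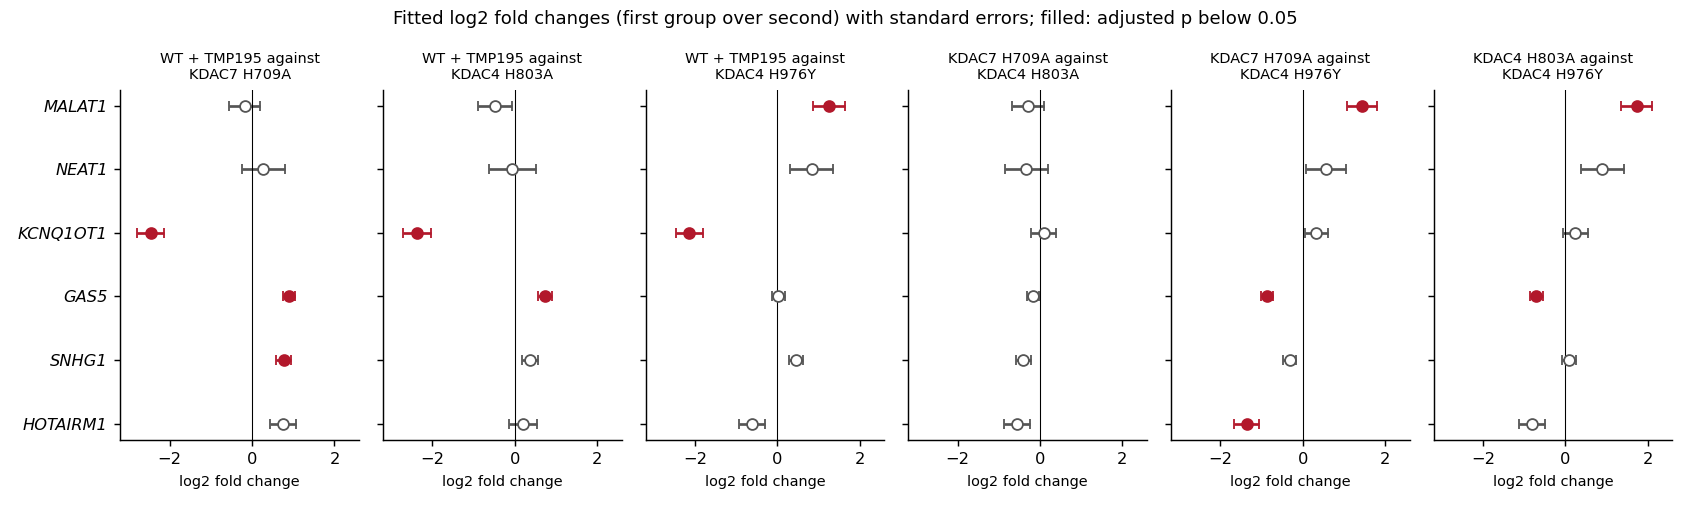
Fitted log2 fold changes, first group over second, with standard errors, for the 6 tested members in the 6 comparisons; filled red points have an adjusted p below 0.05. KCNQ1OT1 lies at -2.46 to -2.14 in the 3 comparisons of TMP195-treated cells, and no point is filled for KDAC7 H709A against KDAC4 H803A.

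KCNQ1OT1 fell in TMP195-treated cells against each of the variant groups. It had 85.0, 81.0 and 87.2 CPM in TMP195-treated replicates 1 to 3. KDAC7 H709A replicates 1 to 4 had 541, 497, 431 and 390.25 CPM, KDAC4 H803A replicates 1 to 3 had 373, 439.8 and 501 CPM, and KDAC4 H976Y replicates 1 to 4 had 293, 276, 245 and 673 CPM. The TMP195-treated libraries were the 3 lowest of 14, and the highest of them was below the lowest variant library, KDAC4 H976Y replicate 3. The log2 fold change was -2.46 ± 0.33 against KDAC7 H709A (SE, adjusted p = 0.000503), -2.38 ± 0.34 against KDAC4 H803A (adjusted p = 0.000887) and -2.14 ± 0.33 against KDAC4 H976Y (adjusted p = 0.000918), which are 5.51-fold, 5.19-fold and 4.40-fold. In these comparisons 24.3%, 24.3% and 53.8% of all tested genes had groups that did not overlap. A larger change than that of KCNQ1OT1 was seen in 4.44%, 5.40% and 8.37%. Without KDAC4 H976Y replicate 4, the log2 fold change of KCNQ1OT1 against KDAC4 H976Y was -1.71 (adjusted p = 9.27e-05).

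Between the variant groups no change of KCNQ1OT1 passed the test in the fit of all libraries, with intervals of -0.28 to 0.93 for KDAC7 H709A against KDAC4 H976Y, -0.41 to 0.89 for KDAC4 H803A against KDAC4 H976Y and -0.57 to 0.74 for KDAC7 H709A against KDAC4 H803A (95%, log2). The contrasts with KDAC4 H976Y turned on a single library. Without KDAC4 H976Y replicate 4, KCNQ1OT1 was called higher in KDAC7 H709A cells (0.78, adjusted p = 0.00918) and in KDAC4 H803A cells (0.68, adjusted p = 0.0219). With offsets for GC content and length both values turned negative, at -0.07 and -0.10, and neither was called.

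KCNQ1OT1 is annotated as 1 unspliced transcript (ENSG00000269821, chr11:2608328-2699994, minus strand) that lies wholly inside KCNQ1 (chr11:2444684-2849110, plus strand). The strand setting of the counting is not given in the sources used here, so reads from either strand cannot be told apart. KCNQ1, a potassium channel gene, had 6 counts in 14 libraries and at most 0.219 CPM. Of the other genes of the imprinted cluster, PHLDA2, a growth-restraining gene that is imprinted with KCNQ1OT1, was measured in every library. It averaged 30.5 ± 5.37 CPM in TMP195-treated cells (n = 3), 43.9 ± 8.92 in KDAC7 H709A cells (n = 4), 38.8 ± 2.00 in KDAC4 H803A cells (n = 3) and 17.3 ± 3.22 in KDAC4 H976Y cells (SD, n = 4). PHLDA2 was higher in each of the first 3 groups than in KDAC4 H976Y cells, by log2 fold changes of 0.82, 1.34 and 1.17 (adjusted p = 0.0182, 0.000952 and 0.00332). Against KDAC7 H709A and KDAC4 H803A cells, where KCNQ1OT1 was 5.51-fold and 5.19-fold lower in TMP195-treated cells, PHLDA2 was not called, at -0.53 ± 0.21 (adjusted p = 0.154) and -0.35 ± 0.22 (adjusted p = 0.445). CDKN1C, a cell cycle inhibitor silenced by KCNQ1OT1 on the paternal allele, stayed between 0 and 2.80 CPM, and IGF2, the growth factor gene imprinted opposite to H19, between 0 and 1.44 CPM. Over the cluster list, 8 of 17 rows were tested; 0 passed against KDAC7 H709A or KDAC4 H803A in TMP195-treated cells, where the median log2 fold change was -0.33 and -0.56 (-0.07 and -0.11 over all genes), and 1, PHLDA2, rose against KDAC4 H976Y. With all libraries, 6.29%, 5.34% and 16.5% of all genes were called for TMP195-treated cells against KDAC7 H709A, KDAC4 H803A and KDAC4 H976Y. Without the 3 libraries that stand apart, TMP195-treated cells had 2 of 8 tested rows higher and 1 lower than KDAC7 H709A cells. They had 0 higher and 3 lower than KDAC4 H803A cells, and 2 higher and 1 lower than KDAC4 H976Y cells. In that fit 45.7%, 47.9% and 53.9% of all genes were called. In KDAC4 H803A against KDAC4 H976Y cells MRPL23-AS1, a noncoding gene near H19, also rose (3.71 ± 1.12, adjusted p = 0.0413), and in KDAC7 H709A against KDAC4 H976Y cells TSSC4, a splicing-linked gene, fell (-1.20 ± 0.28, adjusted p = 0.0126). MRPL23-AS1 was at few counts, and these groups overlapped for it. It had 0.0633 to 2.81 CPM in KDAC4 H803A libraries (45 counts in all) and 0 to 0.282 CPM in KDAC4 H976Y libraries (3 counts in all).

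The genes whose log2 CPM most resembled KCNQ1OT1 over the 14 libraries were named by their correlation with it. Among 15707 genes with a mean of at least 1 CPM, the closest were UGDH-AS1 (Pearson r = 0.99), AC007743.1 (r = 0.99) and RP11-624A21.1 (r = 0.989), on chromosomes 4, 2 and 15; the libraries are the same for all, so r is a description. UGDH-AS1 averaged 49.6 ± 4.46 CPM in TMP195-treated cells, against 299 ± 52.0 in KDAC7 H709A, 344 ± 82.7 in KDAC4 H803A and 285 ± 151 in KDAC4 H976Y cells. RP11-624A21.1 averaged 32.9 ± 2.21 CPM in TMP195-treated cells, against 515 ± 60.9 in KDAC7 H709A, 518 ± 103 in KDAC4 H803A and 326 ± 166 in KDAC4 H976Y cells. Both fell in TMP195-treated cells in each comparison, with log2 fold changes of -2.52 to -2.79 for UGDH-AS1 and -3.31 to -3.98 for RP11-624A21.1. Of the 50 genes closest to KCNQ1OT1, 59.2% of those annotated were not protein-coding, against 19.5% of all candidates, and their median GC content was 41.7%, against 48%.

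Long unspliced noncoding genes were then listed, after the values of KCNQ1OT1 had been seen, because KCNQ1OT1 is annotated as one. HELLPAR, an annotated transcript of 205012 bases on chromosome 12, had 333, 291 and 290.34 CPM in TMP195-treated replicates 1 to 3, against 1389 to 1772 in KDAC7 H709A, 1239.9 to 1487 in KDAC4 H803A and 674 to 1838 in KDAC4 H976Y libraries. It fell by 2.36, 2.14 and 1.75 on the log2 scale in TMP195-treated cells against KDAC7 H709A, KDAC4 H803A and KDAC4 H976Y (adjusted p = 0.000578, 0.00168 and 0.00268). The list held 18 tested noncoding genes with 1 unspliced transcript of at least 10000 bases, KCNQ1OT1 left out. Of these, 5, 5 and 6 fell and 1 rose in these comparisons, with medians of -0.30, -0.36 and -0.29. Of all genes, 4.31%, 3.78% and 8.55% fell and 1.99%, 1.56% and 7.96% rose, with medians of -0.07, -0.11 and 0.03.

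**Figure D3:**
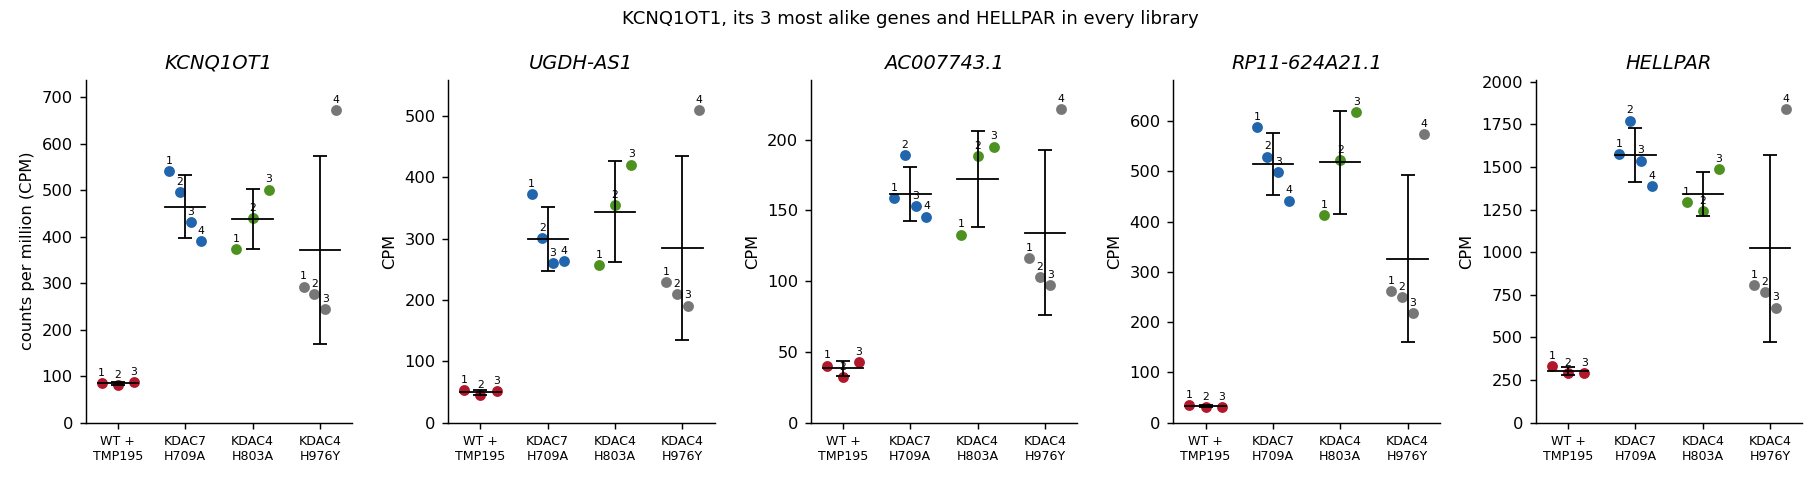
CPM of KCNQ1OT1, the 3 genes closest to it over the 14 libraries, and HELLPAR, each point 1 library numbered by replicate, with the group mean and SD. In each panel the 3 TMP195-treated libraries are the lowest, and KDAC4 H976Y replicate 4 lies above the other KDAC4 H976Y libraries.

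GAS5 separated the groups into a pair of levels. It had 239.5, 214 and 216 CPM in TMP195-treated replicates 1 to 3, 94.3, 116, 139 and 128 CPM in KDAC7 H709A replicates 1 to 4, 128, 138 and 138 CPM in KDAC4 H803A replicates 1 to 3, and 219, 209.65, 217 and 233 CPM in KDAC4 H976Y replicates 1 to 4. TMP195-treated and KDAC4 H976Y libraries overlapped at the high level, and both inactive variants overlapped at the low one. No library lay between 139 and 209.65 CPM. In the comparisons across this gap, groups did not overlap for 20.1% to 24.3% of all genes. GAS5 fell in KDAC7 H709A cells (-0.88 ± 0.15, adjusted p = 0.00193) and in KDAC4 H803A cells (-0.70 ± 0.16, adjusted p = 0.0116), each against KDAC4 H976Y cells. It rose in TMP195-treated cells, by 0.90 ± 0.15 against KDAC7 H709A (adjusted p = 0.00345) and 0.73 ± 0.17 against KDAC4 H803A (adjusted p = 0.0221). Between TMP195-treated and KDAC4 H976Y cells the log2 difference was 0.02, with an interval of -0.31 to 0.36. Both contrasts with KDAC7 H709A kept their call in 9 other settings and in 14 fits that each left out 1 library. Both contrasts with KDAC4 H803A lost it with offsets for GC and length, at -0.22 against KDAC4 H976Y (adjusted p = 0.41) and 0.57 for TMP195-treated cells (adjusted p = 0.11), and without a filter on low counts (adjusted p = 0.0833 and 0.143). The second also lost it with only the groups compared in the fit (adjusted p = 0.113). Without KDAC4 H803A replicate 3 they missed the threshold at adjusted p = 0.0507 and 0.0895, and the second also without KDAC4 H803A replicate 2, KDAC4 H976Y replicate 1 or any TMP195-treated library (0.0526 to 0.122).

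SNHG1 was highest in TMP195-treated cells. It had 171, 165 and 172 CPM in TMP195-treated replicates 1 to 3, 94.8, 86.3, 101 and 115 CPM in KDAC7 H709A replicates 1 to 4, 106, 116 and 173 CPM in KDAC4 H803A replicates 1 to 3, and 119.9, 119, 121 and 136 CPM in KDAC4 H976Y replicates 1 to 4. TMP195-treated libraries overlapped with none of KDAC7 H709A or KDAC4 H976Y, and KDAC4 H803A replicate 3 reached the same level. Groups did not overlap for 24.3% and 53.8% of all genes in the comparisons with KDAC7 H709A and KDAC4 H976Y. SNHG1 rose in TMP195-treated against KDAC7 H709A cells by 0.77 ± 0.18 (adjusted p = 0.0229), a call that was lost when KDAC7 H709A replicate 2 or 3 or any TMP195-treated library was left out (adjusted p = 0.0506 to 0.103), or without a filter on low counts (adjusted p = 0.112). Against KDAC4 H976Y cells the difference was 0.45 ± 0.18 (adjusted p = 0.102), and it was called without the 3 libraries that stand apart (0.45, adjusted p = 0.0107). Without the 3 libraries that stand apart SNHG1 was lower in KDAC7 H709A than in KDAC4 H803A cells (-0.61, adjusted p = 0.00752). With all libraries the difference was -0.41 ± 0.18 (adjusted p = 0.634). Without the 3 libraries, 53.9% of all genes were called for TMP195-treated against KDAC4 H976Y cells, and 60.2% for KDAC7 H709A against KDAC4 H803A cells.

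The snoRNAs that both hosts are known to carry in their introns could not be read. Of 10 listed for GAS5, 7 names had rows, and of 8 listed for SNHG1 all had; the 21 and 13 rows with these names, which were not checked to lie in the introns, had an effective length of 0 and 0 counts. A further row named MALAT1, a 95-base element inside the gene (chr11:65502914-65503008), had the same, so it is not counted as a member. Of 20 other tested snoRNA hosts, 2 rose and 0 fell in TMP195-treated cells against KDAC7 H709A, with the same counts against KDAC4 H803A, and 0 rose and 2 fell against KDAC4 H976Y. Against KDAC4 H976Y, 0 rose and 3 fell in KDAC7 H709A cells, and 1 rose and 4 fell in KDAC4 H803A cells. In the same order, 1.99%, 1.56%, 7.96%, 7.28% and 9.21% of all genes rose and 4.31%, 3.78%, 8.55%, 5.19% and 5.85% fell. With the 3 libraries that stand apart left out, TMP195-treated cells had 10 higher and 2 lower than KDAC7 H709A cells, 6 higher and 10 lower than KDAC4 H803A cells, and 7 higher and 9 lower than KDAC4 H976Y cells, while against KDAC4 H976Y cells 0 rose and 11 fell in KDAC7 H709A cells and 9 rose and 6 fell in KDAC4 H803A cells. That fit called 45.7%, 47.9%, 53.9%, 31.8% and 64.5% of all genes in these comparisons. SNHG4 moved as GAS5 did: it averaged 28.0 ± 5.32 CPM in TMP195-treated, 6.90 ± 2.93 in KDAC7 H709A, 11.1 ± 3.99 in KDAC4 H803A and 28.3 ± 4.67 in KDAC4 H976Y cells. Its log2 fold changes were 2.02 ± 0.31 and 1.33 ± 0.34 in TMP195-treated cells against KDAC7 H709A and KDAC4 H803A (adjusted p = 0.00160 and 0.0365), and -2.04 ± 0.30 and -1.35 ± 0.33 in KDAC7 H709A and KDAC4 H803A cells against KDAC4 H976Y (adjusted p = 0.000979 and 0.0162). SNHG9 was lower in each group than in KDAC4 H976Y cells, at 0.4659 ± 0.0569 CPM in TMP195-treated, 0.303 ± 0.187 in KDAC7 H709A, 1.02 ± 0.36 in KDAC4 H803A and 3.14 ± 0.47 in KDAC4 H976Y cells (log2 fold changes of -2.72, -3.38 and -1.62, adjusted p = 0.00202, 0.000446 and 0.0284). SNHG19 fell in KDAC7 H709A against KDAC4 H976Y cells (-1.68 ± 0.44, adjusted p = 0.0249). SNHG3 rose in both contrasts in which GAS5 rose in TMP195-treated cells, to 214 ± 15.3 CPM in TMP195-treated cells, against 93.7 ± 18.9 in KDAC7 H709A and 106 ± 33.1 in KDAC4 H803A cells. SNHG5, another host whose snoRNAs guide ribosomal RNA methylation, was not called, with means of 99.7, 80.4, 72.6 and 77.1 CPM in TMP195-treated, KDAC7 H709A, KDAC4 H803A and KDAC4 H976Y cells.

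Over the 14 libraries the genes closest to GAS5 were PAPPA (r = 0.958), a secreted protease that frees insulin-like growth factors, TXNIP (r = 0.956), an inhibitor of thioredoxin and glucose uptake, and DHRS3 (r = 0.944), a retinaldehyde reductase. DHRS3 averaged 10.3 ± 1.35 CPM in TMP195-treated and 5.15 ± 0.63 in KDAC4 H976Y cells, and 0.84 ± 0.25 in KDAC7 H709A and 0.92 ± 0.27 in KDAC4 H803A cells. For SNHG1 the closest were ZNF343 (r = 0.871), RFX2 (r = 0.848) and LYSMD4 (r = 0.841). GAS5 (ENSG00000234741, chr1:173863900-173868882, minus strand) overlaps ZBTB37 on the other strand by 801 bases; ZBTB37, a zinc finger gene, had 21.8 to 66.2 CPM, against 94.3 to 239.5 for GAS5. SNHG1 (ENSG00000255717) lies at chr11:62851988-62855914, minus strand.

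**Figure D4:**
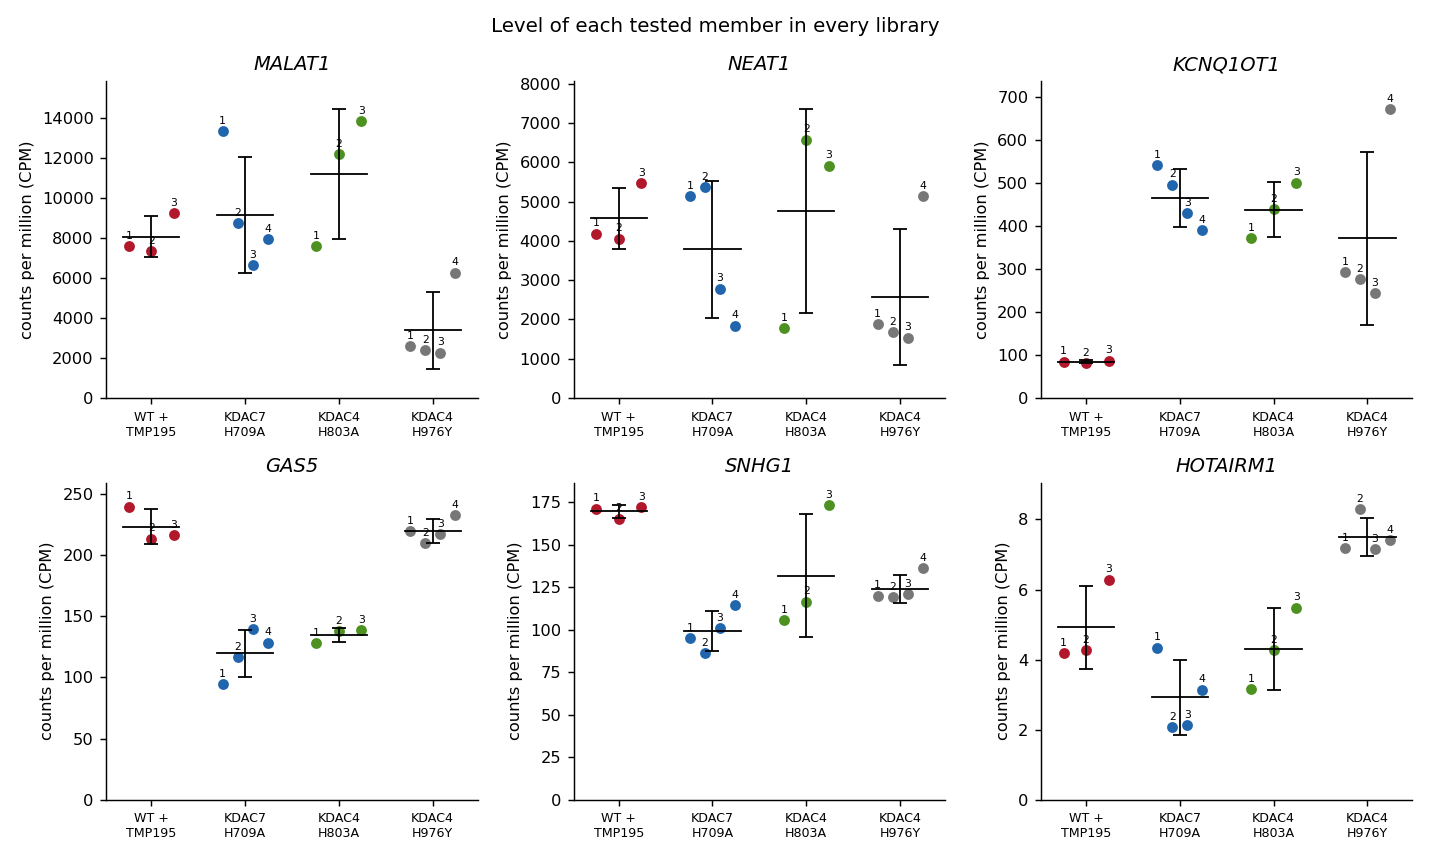
CPM of the 6 tested members in each library, numbered by replicate, with the group mean and SD. GAS5 forms a pair of levels without overlap, KCNQ1OT1 is lowest in the TMP195-treated libraries, and KDAC4 H976Y replicate 4 lies apart from its group for MALAT1, NEAT1 and KCNQ1OT1.

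MALAT1 was lower in KDAC4 H976Y cells than in each other group. It had 7606, 7328.5 and 9255 CPM in TMP195-treated replicates 1 to 3, 13323, 8734.5, 6650.3 and 7934 CPM in KDAC7 H709A replicates 1 to 4, 7583, 12180 and 13831 CPM in KDAC4 H803A replicates 1 to 3, and 2606, 2389, 2266 and 6268 CPM in KDAC4 H976Y replicates 1 to 4. No KDAC4 H976Y library reached the lowest of the other groups, though its replicate 4 came near. MALAT1 was higher than in KDAC4 H976Y cells by 1.73 ± 0.38 in KDAC4 H803A cells (log2, adjusted p = 0.0107), by 1.44 ± 0.36 in KDAC7 H709A cells (adjusted p = 0.01997) and by 1.25 ± 0.38 in TMP195-treated cells (adjusted p = 0.0391), or 3.31-fold, 2.71-fold and 2.38-fold. Groups did not overlap in these comparisons, which held for 23.1%, 20.1% and 53.8% of all genes. Without KDAC4 H976Y replicate 4 the values were 2.19, 1.92 and 1.71. Without KDAC4 H976Y replicate 1, 2 or 3 the calls in KDAC7 H709A cells (adjusted p = 0.0684 to 0.07) and in TMP195-treated cells (0.111 to 0.114) were lost, and that in TMP195-treated cells also without KDAC7 H709A replicate 2 or any TMP195-treated library (0.0526 to 0.13). With only the groups compared in the fit, the calls in KDAC4 H803A and KDAC7 H709A cells were lost (adjusted p = 0.056 and 0.0607), and with upper-quartile scaling that in TMP195-treated cells (adjusted p = 0.0528).

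Features of the KDAC4 H976Y libraries moved with MALAT1: mitochondrial messenger RNA took 0.676% to 1.41% of their counts, against 2.38% to 14.7% elsewhere, and snoRNA genes 0.742% to 0.937%, against at most 0.14%. With mitochondrial and snoRNA genes left out of the table, the 3 MALAT1 values were 1.73, 1.44 and 1.25 and stayed called (adjusted p = 0.00949, 0.0178 and 0.0352). With offsets for GC and length they were 2.10, 1.41 and 1.53, of which the first stayed called and the others had adjusted p = 0.0736 and 0.0594. Leaving genes out of the table does not change the libraries themselves, so the part of these features in the difference was not tested. The genes closest to MALAT1 over the libraries were SSBP2 (r = 0.984), C1QTNF9 (r = 0.98) and PDZD2 (r = 0.98); SSBP2, which codes for a single-stranded DNA-binding protein, averaged 45.3 ± 4.81 CPM in TMP195-treated, 50.6 ± 16.8 in KDAC7 H709A, 69.2 ± 26.3 in KDAC4 H803A and 22.3 ± 10.5 in KDAC4 H976Y cells.

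NEAT1 varied widely inside groups, and no comparison passed the test with all libraries. It had 4187, 4060.4 and 5466 CPM in TMP195-treated replicates 1 to 3, 5139, 5367, 2787 and 1846.5 CPM in KDAC7 H709A replicates 1 to 4, 1782, 6581 and 5916 CPM in KDAC4 H803A replicates 1 to 3, and 1885, 1683, 1539 and 5146 CPM in KDAC4 H976Y replicates 1 to 4. The groups overlapped in all 6 comparisons. The largest difference was 0.89 ± 0.52 for KDAC4 H803A against KDAC4 H976Y (adjusted p = 0.239), with an interval of -0.23 to 2.02. Without KDAC4 H803A replicate 1 it was 1.27 and called (adjusted p = 0.0475), in a fit that called 8431 of 18610 genes. It was also called without the 3 libraries that stand apart (adjusted p = 0.0124), where 64.5% of all genes were called. NEAT1 moved with the GC contrast of the libraries (r = 0.757) and MALAT1 less so (r = 0.55), and MALAT1 and NEAT1, whose genes lie next to each other (chr11:65497688-65506516 and chr11:65422774-65445540, plus strand), moved together (r = 0.776); all 3 values are descriptions over the same 14 libraries. Of the 50 genes closest to NEAT1, 77.6% of those annotated were not protein-coding, led by LINC00863 (r = 0.973).

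**Figure D5:**
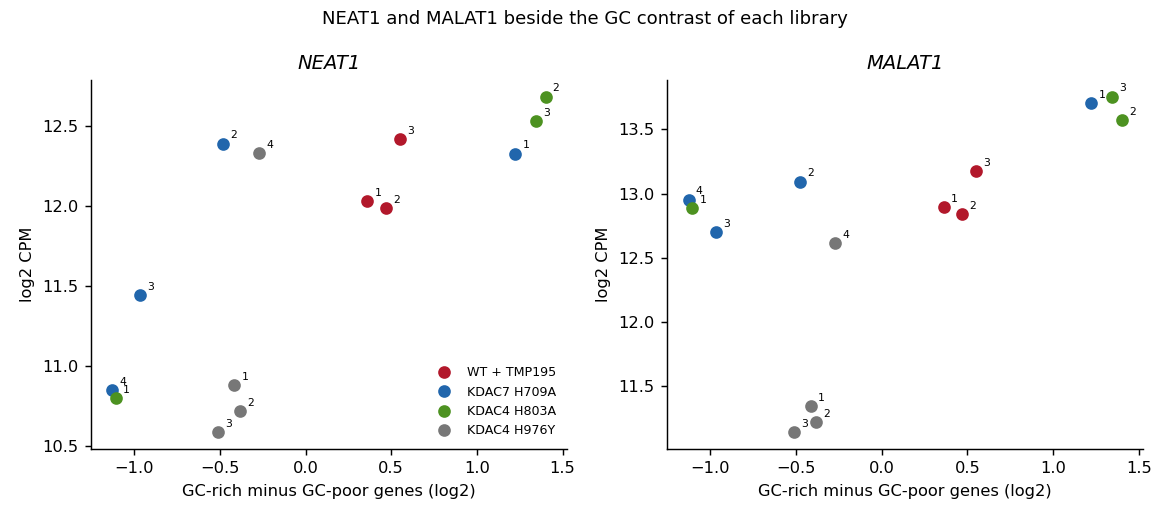
Log2 CPM of NEAT1 and MALAT1 against the GC contrast of each library (log2 difference of GC-rich and GC-poor genes), points numbered by replicate and coloured by group. NEAT1 is at 5139 to 6581 CPM in the 3 libraries with a contrast of 1.22 to 1.40, and KDAC4 H976Y replicates 1 to 3 are low in both panels. Libraries with a lower contrast also reach this range of NEAT1. They are KDAC7 H709A replicate 2 (5367 CPM, contrast -0.480), KDAC4 H976Y replicate 4 (5146 CPM, -0.271) and TMP195-treated replicate 3 (5466 CPM, 0.549).

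Some genes for paraspeckle proteins, the partners of NEAT1, rose against KDAC4 H976Y cells. Of 19 rows tested, 5 rose in TMP195-treated cells, 4 in KDAC7 H709A cells and 8 in KDAC4 H803A cells, and 0 fell, with medians of 0.38, 0.33 and 0.44 (0.03, 0.09 and 0.09 over all genes). Of all genes, 7.96%, 7.28% and 9.21% rose and 8.55%, 5.19% and 5.85% fell in these comparisons. Without the 3 libraries that stand apart, 10, 7 and 13 of the paraspeckle rows rose and 5, 1 and 4 fell. Their medians were 0.37, 0.30 and 0.45. In that fit 25.9%, 16.4% and 32.8% of all genes rose and 28%, 15.3% and 31.8% fell. HNRNPH3, which codes for a splicing factor, averaged 75.5 ± 5.50 CPM in TMP195-treated, 99.5 ± 17.02 in KDAC7 H709A, 98.4 ± 19.8 in KDAC4 H803A and 33.2 ± 4.60 in KDAC4 H976Y cells. TAF15, an RNA-binding protein gene, averaged 117 ± 1.02, 81.0 ± 13.2, 121 ± 22.8 and 46.3 ± 4.53 CPM in the same order. MATR3 has 2 rows under 1 name, between which reads could be split, so its values are uncertain: 1 of them was lower in TMP195-treated than in KDAC4 H803A cells (-1.90 ± 0.37, adjusted p = 0.00787) and the other was not (-0.05). NONO, a protein that NEAT1 needs to form paraspeckles, was not called in any comparison, and its mean was highest in KDAC4 H976Y cells. It averaged 297 ± 25.4 CPM in TMP195-treated, 291 ± 48.4 in KDAC7 H709A, 282 ± 60.3 in KDAC4 H803A and 385 ± 59.5 in KDAC4 H976Y cells. SFPQ, the partner of NONO, was lower in TMP195-treated than in KDAC7 H709A cells (-0.60 ± 0.14, adjusted p = 0.0260). The features of the KDAC4 H976Y libraries given above moved with these differences too, and their part was not tested.

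HOTAIRM1 was the only HOX-linked member with enough counts to test, at 24 to 94 counts per library. It had 4.19, 4.27 and 6.29 CPM in TMP195-treated replicates 1 to 3, 4.34, 2.08, 2.13 and 3.14 CPM in KDAC7 H709A replicates 1 to 4, 3.17, 4.26 and 5.48 CPM in KDAC4 H803A replicates 1 to 3, and 7.18, 8.30, 7.15 and 7.415 CPM in KDAC4 H976Y replicates 1 to 4. KDAC4 H976Y libraries were the 4 highest and overlapped with no other group. Groups did not overlap for 53.8%, 20.1% and 23.1% of all genes in TMP195-treated, KDAC7 H709A and KDAC4 H803A cells against KDAC4 H976Y. HOTAIRM1 fell in KDAC7 H709A against KDAC4 H976Y cells (-1.36 ± 0.30, adjusted p = 0.00932, 2.57-fold), a call kept in the same 9 settings and 14 fits. Against KDAC4 H976Y cells the differences in KDAC4 H803A cells (-0.81 ± 0.32, adjusted p = 0.09998) and TMP195-treated cells (-0.61 ± 0.32, adjusted p = 0.193) did not pass. Without the 3 libraries that stand apart, both were called, at -0.64 and -0.62 (adjusted p = 0.0320 and 0.0204). So were KDAC7 H709A against KDAC4 H803A (-1.19, adjusted p = 0.00338) and TMP195-treated against KDAC7 H709A cells (1.21, adjusted p = 0.00262). That fit called 64.5%, 53.9%, 60.2% and 45.7% of all genes in these comparisons, in the same order. HOTAIRM1 was also called in TMP195-treated against KDAC7 H709A cells without KDAC7 H709A replicate 1 alone (1.00, adjusted p = 0.0396).

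HOTAIRM1 (ENSG00000233429) lies at chr7:27095647-27100265, plus strand. HOXA2, a homeobox gene of the same cluster, was at most 1.35 CPM and was called higher for KDAC4 H803A against KDAC4 H976Y cells (2.12 ± 0.66, adjusted p = 0.0470). The genes closest to HOTAIRM1 were RN7SK (r = 0.947), a small nuclear RNA that holds back transcription elongation, SCARNA12 (r = 0.94), a Cajal body RNA, and DHODH (r = 0.94), an enzyme of pyrimidine synthesis; RN7SK and SCARNA12 are short RNAs, and snoRNA genes took a larger share of counts in the KDAC4 H976Y libraries. RN7SK averaged 15491 ± 1107 CPM in TMP195-treated, 13122 ± 2332 in KDAC7 H709A, 16868 ± 3263 in KDAC4 H803A and 24058 ± 1350 in KDAC4 H976Y cells.

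HOTAIR (ENSG00000228630, chr12:53962308-53974956, minus strand) had 0 to 7 counts per library and was at 0 in 2 of 14. The group totals were 5 counts in TMP195-treated, 14 in KDAC7 H709A, 4 in KDAC4 H803A and 4 in KDAC4 H976Y libraries, and the highest library had 0.329 CPM. HOXC11, which overlaps it on the other strand by 1831 bases, had 20 counts in all. In the same cluster HOXC8, a posterior patterning gene, was measured: it averaged 5.04 ± 0.13 CPM in TMP195-treated, 9.73 ± 3.43 in KDAC7 H709A, 9.24 ± 2.52 in KDAC4 H803A and 1.67 ± 0.32 in KDAC4 H976Y cells, and was higher than in KDAC4 H976Y cells by 1.58, 2.53 and 2.45 (adjusted p = 0.00498, 0.000242 and 0.000524). Of 9 tested HOX genes beside HOTAIR or HOTAIRM1, HOXC8 included, 1, 1 and 2 rose and 0, 0 and 1 fell in these comparisons. Their median log2 fold changes were -0.08, 0.63 and 0.46. Of all genes, 7.96%, 7.28% and 9.21% rose and 8.55%, 5.19% and 5.85% fell. Of 8 other tested HOX noncoding RNAs, 0 were called in any of the 6 comparisons by edgeR; without the 3 libraries that stand apart, 5 of 8 fell in TMP195-treated against KDAC4 H803A cells, 6 fell in KDAC7 H709A against KDAC4 H803A cells and 5 rose in KDAC4 H803A against KDAC4 H976Y cells, where 25%, 30.2% and 32.8% of all genes moved in the same direction. Of 8 genes for chromatin proteins linked to HOTAIR, EZH2 was called higher for KDAC7 H709A against KDAC4 H976Y cells (0.88, adjusted p = 0.0208), EED was lower in TMP195-treated than in KDAC4 H976Y cells (-0.94, adjusted p = 0.00652), and no other call was made with all libraries. Leaving out the 3 libraries that stand apart, 7 of the 8 were higher in KDAC7 H709A against KDAC4 H803A cells and 0 lower, where 30% of all genes were higher and 30.2% lower.

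H19 (ENSG00000130600, chr11:1995176-2001470, minus strand) was at 0 in 9 of 14 libraries, and 7 of its 13 counts lay in KDAC4 H803A replicate 2. The group totals were 2 counts in TMP195-treated, 1 in KDAC7 H709A, 8 in KDAC4 H803A and 2 in KDAC4 H976Y libraries. A count of 0 allows up to 3 counts, or 0.126 to 0.618 CPM in those 9 libraries, a limit that covers counting error only. No difference between groups was detectable at this depth for H19 or HOTAIR.

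Other abundant noncoding RNAs, listed for comparison, gave 17 tested rows. Against KDAC4 H976Y cells, 2 rose and 1 fell in TMP195-treated cells, 0 rose and 5 fell in KDAC7 H709A cells, and 2 rose and 2 fell in KDAC4 H803A cells. Of all genes, 7.96%, 7.28% and 9.21% rose and 8.55%, 5.19% and 5.85% fell in these comparisons, in the same order. TMP195-treated cells had 3 rows higher than KDAC7 H709A cells, where 1.99% of all genes rose, and no other call was made. Without the 3 libraries that stand apart, KDAC7 H709A against KDAC4 H803A cells had 2 rows higher and 11 lower. That comparison then called 60.2% of all genes. RMRP, the RNA of a ribonuclease that processes ribosomal RNA, and RPPH1, the RNA of ribonuclease P, led these calls; each has 2 rows under 1 name, between which reads could be split, so their values are uncertain. The RMRP row with the larger change was lower by -3.08 ± 0.66 in TMP195-treated, -6.52 ± 0.69 in KDAC7 H709A and -5.47 ± 0.75 in KDAC4 H803A cells against KDAC4 H976Y cells (log2, adjusted p = 0.00764, 0.000111 and 0.000766). That row held the fewer counts, at 347, 32.1, 66.3 and 2942 CPM in TMP195-treated, KDAC7 H709A, KDAC4 H803A and KDAC4 H976Y cells. The other RMRP row averaged 8265 ± 1058, 3304 ± 1579, 5109 ± 308 and 6584 ± 437 CPM in the same order, and was highest in TMP195-treated cells. Like the snoRNA genes, both are short RNAs.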

How the data were processed

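The 8 members were followed in 14 RNA sequencing libraries of HT1080 cells; the members, gene lists and comparisons were chosen with earlier results of these data known. The authors deposited expected counts per gene. Trimmomatic 0.39, Bowtie2 2.4.5, RSEM 1.3.3, DESeq2 1.38.2 and GRCh38 are named, without roles, per the submitters' processing notes; the annotation release and the strand setting were not given in the sources used here. The deposited column of KDAC4 H803A replicate 4 holds effective lengths, a score per gene rather than counts: for 7367 of 7612 genes with 1 transcript over 1000 bases (96.8%) it equals the transcript length minus 248.86 bases within 0.02. It was used only as length, and 0 columns were left unmapped.

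Expected counts were rounded. RSEM shares reads among matching transcripts, so genes with near-identical copies are uncertain. Genes were filtered with filterByExpr (minimum count 10, total 15), leaving 17780, scaled by TMM and tested in 1 fit of all 14 libraries with edgeR 4.0.16's quasi-likelihood F test in R 4.3.3, with Benjamini-Hochberg adjustment over all tested genes; each SE is the log2 fold change divided by the root of F, and intervals use the same SE. The fit was tested on simulated data. Likeness is Pearson's r of log2 CPM (prior count 0.5), and the 3 closest genes per member were named. From each list, the genes next to a member or up to 3 called genes with the largest change were named; NONO, SFPQ, TAF15, SNHG3, SNHG5, CDKN1C, IGF2 and HELLPAR were chosen after their values were seen. Some genes that this rule names are not reported here. Gene positions are those of GENCODE v29. Alternatives were DESeq2 1.42.0, upper-quartile scaling, no filter, removal of mitochondrial and snoRNA genes, GC and length offsets, a replicate block, only the groups compared, and leaving out libraries; the gene lists were also counted without the 3 libraries that stand apart, a choice made after seeing the data.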

Additional observations from a re-analysis of the deposited data

Results flagged for a closer look

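In groups of 4 libraries, 7 of 16 sets of member values had a highest or lowest library far from the rest by Dixon's criterion. KDAC4 H976Y replicate 4 was that library for 4 members: MALAT1 was at 6268 CPM there against 2266 to 2606 in the other KDAC4 H976Y libraries, NEAT1 at 5146 against 1539 to 1885, KCNQ1OT1 at 673 against 245 to 293, and SNHG1 at 136 against 119 to 121. Against the mean of the other KDAC4 H976Y libraries these are 3.02-fold for NEAT1, 2.59-fold for MALAT1 and 2.48-fold for KCNQ1OT1, while 1.11%, 2.42% and 3% of 14529 genes had a larger fold; GAS5 and HOTAIRM1 were at 1.08-fold and 0.983-fold. That library had the fewest counts (6151417) and the largest share of mitochondrial ribosomal RNA (31.5%), and their part was not tested.

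The other values concern members at a few counts. H19 was at 0.217 CPM (2 counts) in KDAC4 H976Y replicate 3 and at 0.0868 CPM (1 count) in KDAC7 H709A replicate 2, with 0 in the other libraries of each group. Where only 1 library of a group holds counts, any count meets the criterion. HOTAIR was at 0.0626 CPM (1 count) in KDAC7 H709A replicate 3, against 0.260 to 0.293 CPM in the others.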

How the results depend on the processing

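The fall of KCNQ1OT1 in TMP195-treated cells, the GAS5 differences of TMP195-treated against KDAC7 H709A cells and of KDAC7 H709A against KDAC4 H976Y cells, and the HOTAIRM1 fall in KDAC7 H709A against KDAC4 H976Y cells kept their direction and call in the 9 other settings and in the 14 fits that left out 1 library each. Over all results and settings 748 kept direction and call, 42 lost a call, 14 gained one and 24 changed sign; the causes were not tested. The calls rest on 3 or 4 libraries per group, and H19 and HOTAIR were too shallow to test.

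Genes called (949 to 2936 in the main fit, and 0 for KDAC7 H709A against KDAC4 H803A) moved as follows. TMP195-treated against KDAC7 H709A cells gave 2484 with DESeq2, 453 with a replicate block, 690 with the block plus GC and length offsets, 8392 without the 3 libraries that stand apart, and 422 to 2755 with 1 library left out. TMP195-treated against KDAC4 H803A cells gave 1936 with DESeq2, 563 with the block, 366 with only the groups compared, 8792 without the 3 libraries, and 436 to 2695. TMP195-treated against KDAC4 H976Y cells gave 4493, 1556, 9576, 9895, and 1307 to 5079 in the same order. KDAC7 H709A against KDAC4 H803A cells gave 79 with DESeq2, 14 without a filter, 11044 without the 3 libraries, and 0 to 4788. KDAC7 H709A against KDAC4 H976Y cells gave 3394 with DESeq2, 1322 with the block, 5829 without the 3 libraries, and 1215 to 3440. KDAC4 H803A against KDAC4 H976Y cells gave 4377 with DESeq2, 1230 with the block, 1634 with only the groups compared, 11848 without the 3 libraries, and 1129 to 8431. Upper-quartile scaling moved the share of calls that were higher to 44.8%, against 31.5%, for TMP195-treated against KDAC7 H709A and to 40.8%, against 29.2%, for TMP195-treated against KDAC4 H803A, and GC and length offsets gave 51.5% higher, against 61.1%, for KDAC4 H803A against KDAC4 H976Y.

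Members called were 2 for KDAC4 H803A against KDAC4 H976Y, and 1 without a filter, with the offsets, the block or only the groups compared, 0 with block and offsets, 4 without the 3 libraries, and 1 to 3 with 1 library left out. TMP195-treated against KDAC4 H803A cells had 2, and 1 without a filter, with the offsets, the block, both, or only the groups compared (1 to 2). TMP195-treated against KDAC4 H976Y cells had 2, and 1 with upper-quartile scaling, the offsets, the block or both, and 4 with only the groups compared or without the 3 libraries (1 to 2). KDAC7 H709A against KDAC4 H803A had 0, and 2 without the 3 libraries (0 to 1). With 1 library left out, KDAC7 H709A against KDAC4 H976Y and TMP195-treated against KDAC7 H709A each had 2 to 4.

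Sign changes were near 0. HOTAIRM1 in TMP195-treated against KDAC4 H803A cells was -0.022 with the offsets, -0.025 with block and offsets, and -0.0099 to 0.38 with 1 library left out. KCNQ1OT1 was -0.10 in KDAC4 H803A against KDAC4 H976Y cells with the offsets, -0.069 and -0.036 in KDAC7 H709A against KDAC4 H976Y cells with the offsets and with block and offsets, and in KDAC7 H709A against KDAC4 H803A cells -0.025 with the block, -0.042 with block and offsets, -0.0039 without the 3 libraries, and -0.0093 to 0.20. MALAT1 in TMP195-treated against KDAC7 H709A cells was 0.12, 0.24 and 0.060 with the offsets, block and offsets, and without the 3 libraries, and -0.31 to 0.061. NEAT1 in TMP195-treated against KDAC4 H803A cells was 0.0028 with the block and -0.44 to 0.25. GAS5 in TMP195-treated against KDAC4 H976Y cells ranged from -0.035 to 0.047 and SNHG1 in KDAC4 H803A against KDAC4 H976Y cells from -0.16 to 0.21. Levels per kilobase of effective length were 2627 for MALAT1, 379 for NEAT1, 316 for GAS5, 154 for SNHG1, 9.61 for HOTAIRM1 and 0.199 for HOTAIR.

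Replicate numbers did not pair the libraries: in 19 same-numbered pairs the deviations from group means had correlations of -0.631 to 0.293 (median -0.0746), with 5 over 0.1. With the block, calls were lost for GAS5 in KDAC4 H803A against KDAC4 H976Y cells (adjusted p = 0.0533) and TMP195-treated against KDAC4 H803A cells (0.0704) and for MALAT1 in TMP195-treated against KDAC4 H976Y cells (0.0541). With block and offsets, these had adjusted p = 0.52, 0.213 and 0.107, and calls were also lost for SNHG1 in TMP195-treated against KDAC7 H709A cells (0.108) and for MALAT1 in KDAC7 H709A (0.131) and KDAC4 H803A cells (0.0524) against KDAC4 H976Y.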
